A study of Mus musculus with 6 samples.

Results

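NF-kB is a family of transcription factors that switch on inflammatory and survival genes, and 10 genes of this pathway and its feedback loop were followed in sorted mouse hematopoietic stem cells (HSCs). They were taken by gene name from a table of 19978 genes, where each of the 10 names had a single row: Nfkbia, Nfkbiz, Nfkb1, Nfkb2, Rel, Relb, Tnfaip3, Birc3, Traf1 and Cd83. The samples were 3 libraries with the label Piezo1 cKO (conditional knockout; Piezo1 encodes a mechanically gated cation channel) and 3 wild-type (WT) libraries. Each library came from 100 HSCs sorted from bone marrow, whose RNA was copied at full length from its poly(A) tail and amplified (Smart-seq2). The labels give no Cre driver, floxed allele, strain, age or sex for either genotype, and leave it unsaid how many mice stand behind them. A p-value here thus measures library-to-library spread alone, which may be technical. FPKM, used for levels below, is the number of sequenced fragments per kilobase of transcript, scaled to the number mapped.

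In a resting cell, inhibitor proteins of the IkB family hold NF-kB dimers in the cytoplasm. Signals from receptors for TNF, interleukin-1 or microbial products activate the IKK kinase complex, which marks the inhibitors for destruction and frees the dimers to enter the nucleus. Among the first genes that NF-kB then induces are its own inhibitors and brakes, such as Nfkbia and Tnfaip3, so their transcripts are widely read as a sign of recent pathway activity. In HSCs the pathway is known for its part in inflammatory stress, survival and the choice between self-renewal and myeloid output.

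Facts of the libraries that bear on the genes come first. Total counts ranged from 31252820 to 72116120 in the libraries labelled cKO and from 3907259 (WT 3) to 64794532 (WT 2) in WT, with 18035239 in WT 1. The 100 most abundant genes held 76.1% of the counts in WT 3 and 46.1% in WT 1. In each other library they held 29.8% to 31.7%. Over the genes tested below, log2(FPKM + 1) of WT 2 correlated at 0.595 and 0.612 with labelled cKO 2 and 3. Its correlation with labelled cKO 1, WT 1 and WT 3 was 0.395, 0.366 and 0.264. Piezo1 itself did not separate by label: its FPKM was 0.175, 8.81 and 0.819 in the libraries labelled cKO 1, 2 and 3, against 0.539, 3.97 and 1.57 in WT 1, 2 and 3. Labelled cKO 1 was the lowest library and labelled cKO 2 the highest, and the labels do not name the deleted exons. Genotypes are therefore named as labelled, and every direction below rests on those labels. Of 12 HSC marker genes, 7, 8 and 7 had an FPKM of at least 1 in labelled cKO 1, 2 and 3, against 2, 9 and 3 in WT 1, 2 and 3, and Mecom, a defining one, stayed below 1 in all 6. Mature granulocyte and monocyte markers (14 genes) summed to an FPKM of 893, 38856 and 5061 in labelled cKO 1, 2 and 3, against 29897, 830 and 991 in WT 1, 2 and 3. B cell markers summed to an FPKM of 0.807 to 157 in labelled cKO and 6.95 to 86.3 in WT, and T and NK cell markers to 0.839 to 184 and 4.02 to 861, nearly all of the higher sums from Vpreb3, Cd79b and Nkg7. Erythroid markers summed to 1680 to 2816 in labelled cKO and 9908 to 21923 in WT, megakaryocyte markers to 28.9 to 294 and 16.5 to 1879, and dendritic cell markers to 42.0 to 112 and 24.8 to 77.2. Pf4 made up 1814.5 of the megakaryocyte sum of 1879, in WT 2.

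The 10 genes split into a small set with clear transcript in some libraries and a larger set of values near zero. Of the 60 values (10 genes in 6 libraries), 19 rested on at least 100 counts and 41 on fewer, with none between 121 and 338. The number of the 10 genes with an FPKM of at least 1 was 1, 4 and 6 in labelled cKO 1, 2 and 3, against 1, 5 and 4 in WT 1, 2 and 3. Over the whole table the share of genes at that level was 15.7%, 21.6% and 23.1% in labelled cKO 1, 2 and 3, against 15.6%, 28.7% and 27.0% in WT 1, 2 and 3, so labelled cKO 1 and WT 1 were also the libraries with the fewest detected genes in all. In WT 3 an FPKM of 1 to 2 stood on only 16 to 48 counts for these genes. Mean FPKM was higher in labelled cKO for 7 of the 10 genes and lower for 3, where 39.2% of all genes in the table had the higher mean in labelled cKO.

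**Figure D1:**
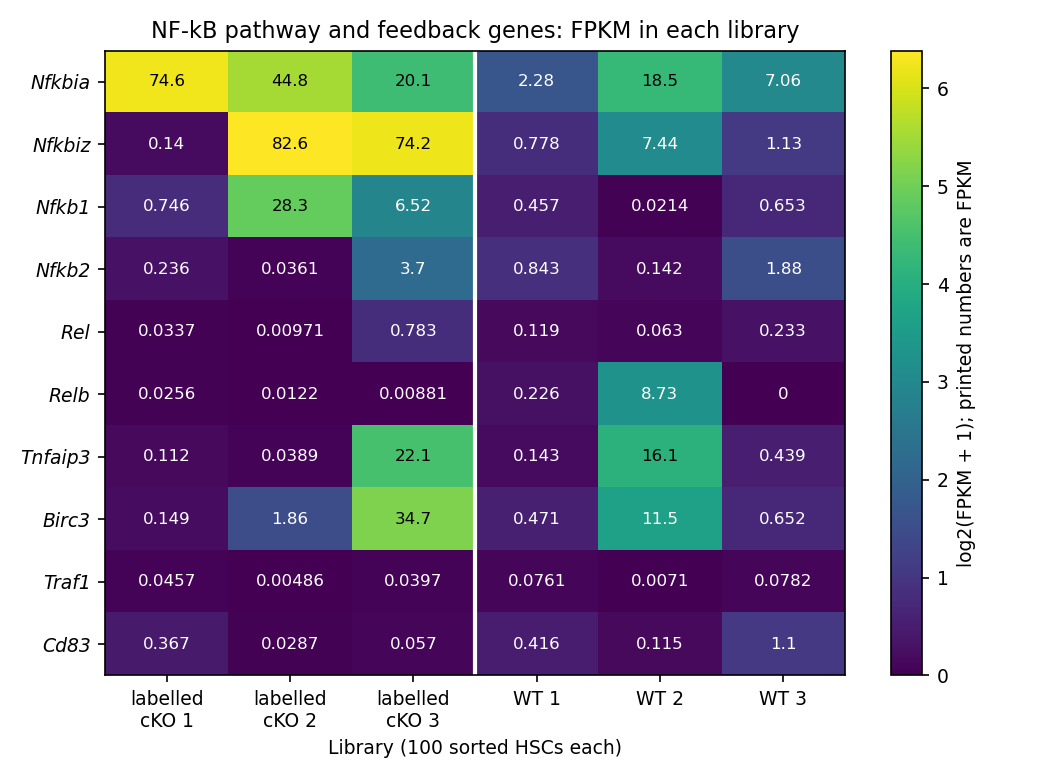
FPKM of the 10 genes (rows) in the 6 libraries (columns, labelled cKO left of the white line and WT right of it). Colour is log2(FPKM + 1) and the printed numbers are FPKM. Nfkbia is the only row at 1 or more in every library, and each other row reaches 1 in at most 4.

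Only 3 of the 10 genes, Nfkbia, Nfkbiz and Birc3, reached the level at which genes were tested (at least 3 of the 6 libraries with an FPKM of 1 or more), as did 4173 of all genes. None of the 3 passed the threshold (edgeR's quasi-likelihood test, Benjamini-Hochberg adjusted p of 0.05), nor did any of the 4173 (0%). At an unadjusted p under 0.05 edgeR had 0 of the 3 genes, against 6.88% of all tested. limma had 0 of the 3 at either level. DESeq2 gave no p for Birc3 and had 0 genes after adjustment, against 7.14% of all tested, and 2 (Nfkbia and Nfkbiz) at an unadjusted p under 0.05, against 21.8% of all tested. The scatter between libraries was wide, with a biological coefficient of variation of 1.49 in edgeR, so these results do not show that the genes were equal between genotypes.

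The NF-kB binding motif stands in the promoters of several of these genes, which is why 4 of them are printed here. Promoter windows of 300 bases, 250 before the transcription start to 50 after it, were found for 6 of the 10 genes in RefSeq (build GRCm38.p6). Where a gene had several windows, the one starting nearest the deposited 5′ end of the gene was used. Nfkbiz, Nfkb1, Relb and Cd83 had no entry. The kappa B consensus, the decameric site that opens with GGG and closes with CC, was searched on both strands. It was found in 4 of the 6 windows, and in 2779 of all 32851 promoter windows of the same length (8.46%). Nfkbia (chr12:55492598-55492897, minus strand) had a match from -29 to -20 relative to the start, counted from 0 at the first transcribed base, on the strand opposite to the gene. Nfkb2 (chr19:46304487-46304786, plus strand) had overlapping matches on both strands from -39 to -29 and another from -11 to -2. Rel (chr11:23770920-23771219, minus strand) had overlapping matches from -92 to -82, and Tnfaip3 (chr10:19015361-19015660, minus strand) had matches from -125 to -116 and from -12 to -3. The windows are shown 5′ to 3′ with the matches in capitals. Birc3 and Traf1 had no match in theirs, which says only that these letters are not in that window.
Nfkbia promoter: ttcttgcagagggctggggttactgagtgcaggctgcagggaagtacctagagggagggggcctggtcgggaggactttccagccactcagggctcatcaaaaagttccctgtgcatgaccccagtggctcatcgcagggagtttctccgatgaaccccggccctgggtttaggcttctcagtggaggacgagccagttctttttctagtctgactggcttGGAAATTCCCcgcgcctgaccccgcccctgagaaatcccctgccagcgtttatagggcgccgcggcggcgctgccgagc
Nfkb2 promoter: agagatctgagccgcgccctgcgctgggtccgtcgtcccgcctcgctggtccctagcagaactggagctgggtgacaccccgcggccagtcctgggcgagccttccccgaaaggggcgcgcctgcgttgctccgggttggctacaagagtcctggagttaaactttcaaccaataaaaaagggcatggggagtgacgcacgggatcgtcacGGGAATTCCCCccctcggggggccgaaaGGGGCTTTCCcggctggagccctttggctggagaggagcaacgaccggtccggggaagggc
Rel promoter: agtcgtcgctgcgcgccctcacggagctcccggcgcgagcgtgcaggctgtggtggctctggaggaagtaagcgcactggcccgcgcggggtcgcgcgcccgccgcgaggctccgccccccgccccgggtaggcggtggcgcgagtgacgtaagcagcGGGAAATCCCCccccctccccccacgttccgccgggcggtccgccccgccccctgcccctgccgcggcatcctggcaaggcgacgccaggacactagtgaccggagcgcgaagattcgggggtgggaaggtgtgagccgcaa
Tnfaip3 promoter: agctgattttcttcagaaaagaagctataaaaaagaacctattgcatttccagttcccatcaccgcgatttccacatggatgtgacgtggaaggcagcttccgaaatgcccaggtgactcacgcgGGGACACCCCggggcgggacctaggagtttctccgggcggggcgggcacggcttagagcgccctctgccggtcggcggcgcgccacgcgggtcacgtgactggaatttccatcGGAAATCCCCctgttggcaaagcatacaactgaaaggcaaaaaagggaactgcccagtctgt
The matches describe the sequence and were not measured as bound sites. Levels varied among genes with a match and among those without. With a match, Nfkbia had an FPKM of at least 1 in every library while Rel never reached 1. Without one, Birc3 reached 34.7 while Traf1 stayed at or below 0.0782. Whether the matches bear on the levels was not tested.

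**Figure D2:**
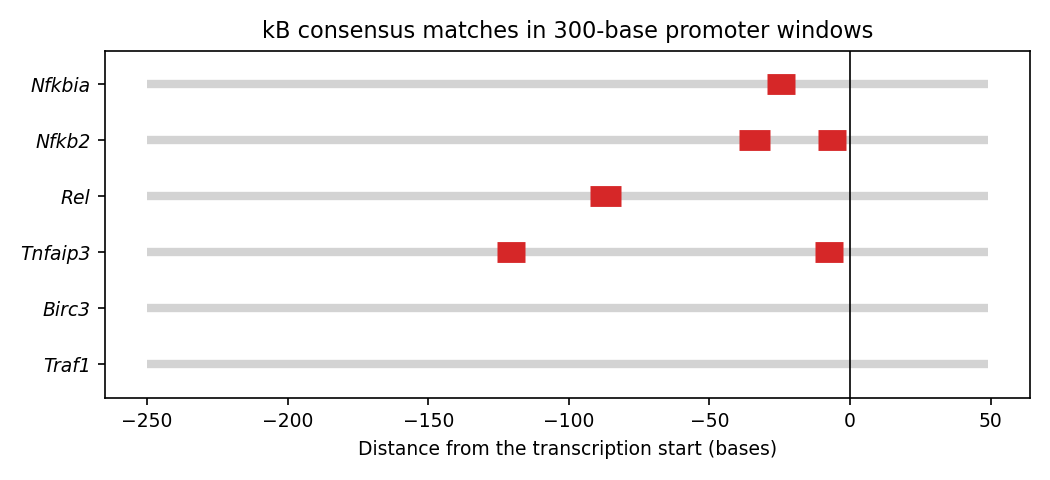
Position of kappa B consensus matches (red) in the promoter windows (grey) of the 6 genes with an entry, as the distance in bases from the transcription start (black line). Nfkbia, Nfkb2, Rel and Tnfaip3 carry matches, all upstream of the start, and Birc3 and Traf1 carry none.

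Nfkbia, which encodes IkB-alpha, the main inhibitor that captures NF-kB and is itself an NF-kB target, was the only one of the 10 genes with an FPKM of at least 1 in every library. Nfkbia (ENSMUSG00000021025; chromosome 12, 55489410 to 55492647) had an FPKM of 74.6, 44.8 and 20.1 in labelled cKO 1, 2 and 3, against 2.28, 18.5 and 7.06 in WT 1, 2 and 3. Every labelled cKO library lay above every WT library, although labelled cKO 3 and WT 2 lay close together. Over all genes, 1000 (5.01%) reached that level in all 6 libraries. Its highest level was 32.8 times its lowest, against a median of 173.5 times over the 3845 tested genes with no library at 0. The mean was 46.5 ± 27.3 in labelled cKO and 9.29 ± 8.35 in WT (SD, n = 3 each). On the log2 scale the fitted fold change was 2.82 ± 2.52 (SE; edgeR, adjusted p = 0.747). The median log2 fold change of all tested genes in that fit was 1.10, which leaves 1.72 for Nfkbia relative to it. The WT values of 2.28 and 7.06 stood on 80 and 63 counts, and without WT 1 and WT 3 the fold change was 1.72 (edgeR, adjusted p = 1.00). It was 0.73 without labelled cKO 1, the library with the highest level (edgeR, adjusted p = 0.933).

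Immediate-early genes and HSC markers also tended to be higher in the labelled cKO libraries on a log2 scale, though not in every comparison. Immediate-early genes, which respond within minutes to signals and to cell handling, averaged 4.71, 5.06 and 4.80 on the log2(FPKM + 1) scale over 19 genes in labelled cKO 1, 2 and 3. In WT 1, 2 and 3 they averaged 3.73, 4.28 and 2.42, below each labelled cKO library. None of the 15 tested passed in edgeR, none had an unadjusted p under 0.05, and their median log2 fold change was 1.60, against 1.10 for all tested genes. HSC markers averaged 3.13, 3.81 and 3.15 in labelled cKO 1, 2 and 3, against 1.29, 3.54 and 1.07 in WT 1, 2 and 3, so WT 2 lay above labelled cKO 1 and 3. In summed FPKM, WT 1 was the highest library for both lists. Its immediate-early sum was 3557, against 2479, 1768 and 1792 in labelled cKO 1, 2 and 3. Its HSC marker sum was 610, against 572, 496 and 429. WT 2 and WT 3 lay below each labelled cKO library in both sums. The total count was lowest in WT 3 and WT 1. On the log2(FPKM + 1) scale erythroid markers averaged 4.44, 4.33 and 4.47 in labelled cKO 1, 2 and 3. In WT 1, 2 and 3 they averaged 5.75, 6.00 and 6.16, above each labelled cKO library. The part of these lists and of the total count in the Nfkbia difference was not tested. Mature myeloid markers followed another order: labelled cKO 1 had the highest Nfkbia and a marker sum of 893, and WT 1 had the lowest Nfkbia and a sum of 29897. In such pools, fewer cells of a type and less RNA per cell cannot be told apart.

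The tested genes whose levels over the 6 libraries were most like that of Nfkbia, by Pearson's r of log2(FPKM + 1), were Uba1, Hjurp, Pnrc1, Cdkn2aipnl and Hk2, with r from 0.984 to 0.989. This is a description of the 5 closest among 4173 genes over 6 points that share library and depth. Uba1, the main ubiquitin-activating enzyme, had an FPKM of 98.4, 79.4 and 26.9 in labelled cKO 1, 2 and 3, against 2.73, 18.7 and 5.99 in WT 1, 2 and 3. Pnrc1, a nuclear receptor coactivator, had 547.9, 317.9 and 71.1 FPKM in labelled cKO 1, 2 and 3, against 1.70, 35.2 and 5.29 FPKM in WT 1, 2 and 3. Like Nfkbia, both were highest in labelled cKO 1 and lowest in WT 1.

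Nfkbiz encodes IkB-zeta, an atypical IkB of the nucleus that works with NF-kB at secondary response genes. Nfkbiz (ENSMUSG00000035356; chromosome 16, 55811375 to 55838899) had an FPKM of 0.140, 82.6 and 74.2 in labelled cKO 1, 2 and 3, against 0.778, 7.44 and 1.13 in WT 1, 2 and 3. The genotypes overlapped: labelled cKO 2 and 3 were the highest libraries, on 33011 and 28976 counts, and labelled cKO 1 was the lowest of all, on 27. So these 2 genes of the IkB family did not share a pattern, since labelled cKO 1 had the highest Nfkbia and the lowest Nfkbiz. Mean FPKM was 52.3 ± 45.4 in labelled cKO and 3.12 ± 3.75 in WT (SD, n = 3 each). The fold change on the log2 scale was 4.51 ± 2.73 (SE; edgeR, adjusted p = 0.730), or 3.40 above the median of all tested genes. Without WT 1 and WT 3 it was 2.97 (edgeR, adjusted p = 1.00). Within labelled cKO, Nfkbiz and the mature myeloid marker sum were both highest in library 2 and lowest in library 1, whereas WT 1 had a sum of 29897 beside 0.778 for Nfkbiz, and the part of these markers was not tested.

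**Figure D3:**
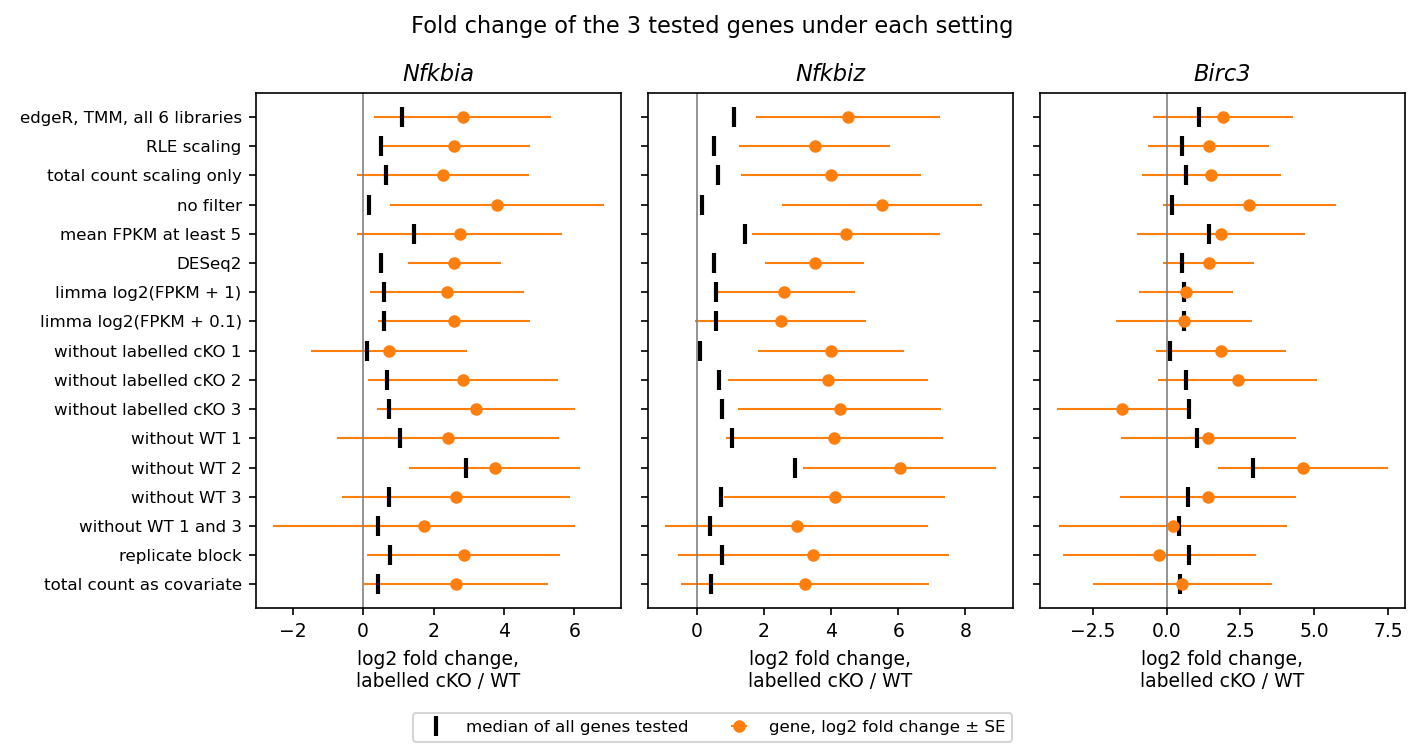
Log2 fold change, labelled cKO over WT, of Nfkbia, Nfkbiz and Birc3 (orange points; bars are 1 standard error) under each setting, with the median of all genes tested in the same fit (black ticks). Nfkbia and Nfkbiz lie above 0 in each setting drawn, and Birc3 lies below 0 without labelled cKO 3 and with the replicate block.

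The NF-kB subunits bind DNA as dimers. Rela, Rel and Relb carry the domain that activates transcription, and Nfkb1 and Nfkb2 encode precursors that are processed into partners without it. Their transcripts were seldom abundant, and the leading subunit differed between libraries. By FPKM, which is per length, the highest subunit was Rela in labelled cKO 1 (8.48), Nfkb1 in labelled cKO 2 (28.3) and 3 (6.52), Rela in WT 1 (110.9), Relb in WT 2 (8.73) and Nfkb2 in WT 3 (1.88). At most 2 of the 5 subunit genes reached an FPKM of 1 in any library.

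Nfkb1 (ENSMUSG00000028163; chromosome 3, 135584655 to 135691546) had an FPKM of 0.746, 28.3 and 6.52 in labelled cKO 1, 2 and 3, against 0.457, 0.0214 and 0.653 in WT 1, 2 and 3. Its groups did not overlap, with labelled cKO 2 and 3 far above the rest and labelled cKO 1 just above WT 3. With Nfkbia it made 2 of the 10 genes that lay higher in every labelled cKO library, against 1.87% of all genes in the table and 6.37% of those tested; none of the 10 lay lower in every labelled cKO library, against 8.6% of the table. Nfkb1 was not tested with the other genes because its FPKM reached 1 in only 2 libraries. Fitted with no filter on low values, it had a log2 fold change of 6.88 ± 3.33 (SE; edgeR, unadjusted p = 0.0385, adjusted p = 0.406). Without labelled cKO 2 it was 4.93 (edgeR, unadjusted p = 0.137), and the unadjusted p was also above 0.05 when any 1 WT library was left out, from 0.0677 to 0.0875. Gm43430, an unclassified transcript annotated on the same strand and overlapping Nfkb1, had 2763 counts in labelled cKO 3 and 0 in each other library, so reads of the pair may have been split there.

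Relb, the activating subunit of the slower noncanonical arm, showed the opposite picture in a single library. Relb (ENSMUSG00000002983; chromosome 7, 19606217 to 19629438) had an FPKM of 0.0256, 0.0122 and 0.00881 in labelled cKO 1, 2 and 3, against 0.226 and 8.73 in WT 1 and 2 and a listed 0 in WT 3. In counts that was 4, 5 and 3 in labelled cKO, against 21, 2455 and 0 in WT, so only WT 2 held more than traces. WT 2 also had the highest sums of megakaryocyte markers (1879) and T and NK cell markers (861) of the 6 libraries. Nearly all of these sums came from a single gene each, Pf4 (1814.5) and Nkg7 (860.9). Itga2b, another megakaryocyte marker, was lower in WT 2 (7.21) than in labelled cKO 1, 2 and 3 (177.1, 16.6 and 28.2). The part of these markers was not tested. In WT 3 a count of 0 allows up to 3 counts. Fitted with no filter, Relb had a log2 fold change of -6.10 ± 2.82 (SE; edgeR, unadjusted p = 0.0304, adjusted p = 0.385), and it was -1.65 without WT 2 (edgeR, adjusted p = 0.643). The unadjusted p of Relb was above 0.05 when any 1 labelled cKO library was left out too (edgeR, 0.0719 to 0.089). With Nfkb1, Relb made 2 of the 10 genes with an unadjusted p under 0.05 in that fit, against 11.6% of all genes in it, and 0 of the 10 passed after adjustment, against 0.816%.

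Nfkb2, the noncanonical precursor gene, and Rel, which encodes the c-Rel subunit of lymphoid and myeloid cells, were both highest in labelled cKO 3. Nfkb2 (ENSMUSG00000025225; chromosome 19, 46304320 to 46312385) had an FPKM of 0.236, 0.0361 and 3.70 in labelled cKO 1, 2 and 3, against 0.843, 0.142 and 1.88 in WT 1, 2 and 3. Rel (ENSMUSG00000020275; chromosome 11, 23736847 to 23770970) had 0.0337, 0.00971 and 0.783 FPKM in labelled cKO 1, 2 and 3, against 0.119, 0.0630 and 0.233 FPKM in WT 1, 2 and 3. The genotypes overlapped for both. Outside labelled cKO 3, with 1320 counts for Nfkb2 and 455 for Rel, neither gene had more than 84 counts. Without labelled cKO 3 the log2 fold changes fitted with no filter were -0.97 for Nfkb2 and -0.92 for Rel, against 2.28 and 2.65 with it (edgeR, adjusted p between 0.545 and 0.952 in these 4 fits). AC114539.1, a lncRNA that overlaps Nfkb2 on the opposite strand, had 11331 counts in labelled cKO 2 and 5965 in WT 2, where Nfkb2 had 14 and 49. Whether counting used strand is not given, so reads where the pair overlaps cannot be assigned with certainty.

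**Figure D4:**
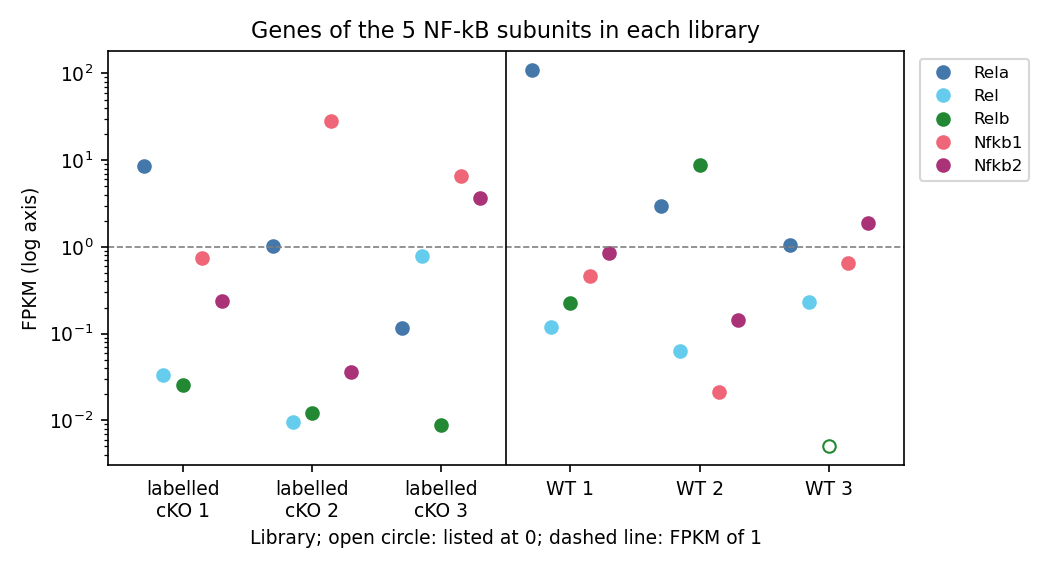
FPKM on a log axis of the genes of the 5 NF-kB subunits in each library, labelled cKO left of the vertical line and WT right of it. The dashed line marks an FPKM of 1 and the open circle a gene listed at 0. The highest subunit is Rela, Nfkb1, Nfkb1, Rela, Relb and Nfkb2 from left to right, and at most 2 genes of a library lie above the dashed line.

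Tnfaip3 and Birc3 encode ubiquitin enzymes that act on the signalling complexes upstream of IKK. Tnfaip3 is a ubiquitin-editing enzyme that shuts the pathway down, and Birc3 is a ubiquitin ligase of the inhibitor-of-apoptosis family. Tnfaip3 (ENSMUSG00000019850; chromosome 10, 19000910 to 19015410) had an FPKM of 0.112, 0.0389 and 22.1 in labelled cKO 1, 2 and 3, against 0.143, 16.1 and 0.439 in WT 1, 2 and 3. It was high in 1 library of each genotype, labelled cKO 3 on 12432 counts and WT 2 on 8435, and had at most 32 counts in the others. Birc3 (ENSMUSG00000032000; chromosome 9, 7848699 to 7873170) had 0.149, 1.86 and 34.7 FPKM in labelled cKO 1, 2 and 3, against 0.471, 11.5 and 0.652 FPKM in WT 1, 2 and 3. The same libraries led for Birc3, on 13532 counts in labelled cKO 3 and 4170 in WT 2, with labelled cKO 2 next on 744.

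For neither gene did the genotypes separate. Mean Tnfaip3 FPKM was 7.42 ± 12.7 in labelled cKO and 5.57 ± 9.14 in WT, and mean Birc3 FPKM was 12.2 ± 19.5 in labelled cKO and 4.21 ± 6.31 in WT (SD, n = 3 each). The log2 fold change of Birc3 was 1.91 ± 2.38 (SE; edgeR, adjusted p = 0.785), 0.81 above the median of all tested genes, and it was -1.51 without labelled cKO 3. Tnfaip3, fitted with no filter, had 1.64 ± 2.82 (SE; edgeR, adjusted p = 0.811), and -4.86 without labelled cKO 3. Nfkbid, a further nuclear IkB gene picked out after its values were seen, was high in the same libraries, with an FPKM of 0, 0.0300 and 46.3 in labelled cKO 1, 2 and 3, against 0.154, 33.8 and 0.294 in WT 1, 2 and 3. The T and NK cell marker sum (9 genes) was highest in those libraries too, at 184 in labelled cKO 3 and 861 in WT 2, against 0.839 and 84.0 in labelled cKO 1 and 2 and 4.02 and 7.96 in WT 1 and 3. Nearly all of it was Nkg7, a granule gene of cytotoxic cells, while Cd3e stayed at or below 0.0650, and the part of these markers was not tested.

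Traf1, an adaptor of TNF receptors, and Cd83, a surface protein of activated dendritic cells and lymphocytes, are widely used as NF-kB target genes and stayed at trace level in all libraries. Traf1 (ENSMUSG00000026875; chromosome 2, 34941750 to 34961597) had an FPKM of 0.0457, 0.00486 and 0.0397 in labelled cKO 1, 2 and 3, against 0.0761, 0.00710 and 0.0782 in WT 1, 2 and 3, on 4 to 28 counts. Cd83 (ENSMUSG00000015396; chromosome 13, 43784775 to 43803132) had 0.367, 0.0287 and 0.0570 FPKM in labelled cKO 1, 2 and 3, against 0.416, 0.115 and 1.10 FPKM in WT 1, 2 and 3, on 6 to 36 counts. The genotypes overlapped for both, and the highest FPKM of each fell in WT 3, the library with the lowest total, on 4 and 16 counts. No difference was detected on these few counts: fitted with no filter, the log2 fold changes were 0.76 ± 1.65 (SE) for Traf1 and -0.05 ± 1.55 for Cd83 (edgeR, adjusted p of 0.862 and 0.990), and the Traf1 estimate had the sign opposite to its FPKM means of 0.0301 ± 0.0221 in labelled cKO and 0.0538 ± 0.0404 in WT (SD, n = 3 each).

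The rest of the pathway was read from 7 lists ordered by role, 92 genes of which 84 were in the table and 21 were tested. None passed in edgeR (0 of 21), 1 had an unadjusted p under 0.05, and 17 of the 21 (81.0%) had a positive log2 fold change, against 67.9% of all tested genes. The median log2 fold change of the 21 was 2.41, against 1.10 for all tested.

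Of 16 receptor genes, 2 were tested, Ltbr, the lymphotoxin-beta receptor, and Tnfrsf1a, the main TNF receptor. Ltbr had an FPKM of 66.2, 2.36 and 0.0869 in labelled cKO 1, 2 and 3, against 1.44, 0.0533 and 0.584 in WT 1, 2 and 3. Tnfrsf1a had 9.58, 64.5 and 0.0851 FPKM in labelled cKO 1, 2 and 3, against 1.80, 0.881 and 2.54 FPKM in WT 1, 2 and 3. Each was high in 1 labelled cKO library and lowest or nearly so in labelled cKO 3, where none of the 16 receptors reached an FPKM of 1 although 6 of the 10 genes did. Their log2 fold changes were 5.22 and 4.19 (edgeR, adjusted p of 0.692 and 0.734).

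Among 17 adaptors and ubiquitin ligases, 3 were tested and 2 of them had a positive fold change. Birc2, a close relative of Birc3 in the inhibitor-of-apoptosis family, had an FPKM of 104.5, 52.8 and 0.0532 in labelled cKO 1, 2 and 3, against 0.367, 9.30 and 0.774 in WT 1, 2 and 3. Within labelled cKO its order was the reverse of that of Birc3: Birc2 was high in labelled cKO 1 and 2 and Birc3 in labelled cKO 3. Rbck1, of the linear ubiquitin ligase, had 0.230, 22.2 and 78.6 FPKM in labelled cKO 1, 2 and 3, against 0.842, 20.0 and 1.23 FPKM in WT 1, 2 and 3. Myd88, the adaptor of Toll-like receptors, had 2.57, 0.0916 and 8.49 FPKM in labelled cKO 1, 2 and 3, against 8.13, 8.61 and 1.37 FPKM in WT 1, 2 and 3. The log2 fold changes of Birc2, Rbck1 and Myd88 were 4.46, 2.60 and -0.52 (edgeR, adjusted p of 0.730, 0.754 and 0.925).

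Of 10 genes of the IKK complex and its upstream kinases, 4 were tested and all 4 had a positive fold change that did not pass. Ikbkb, the kinase that marks IkB-alpha, had an FPKM of 3.93, 8.04 and 2.11 in labelled cKO 1, 2 and 3, against 0.0961, 0.720 and 0.236 in WT 1, 2 and 3. Like Nfkbia, it was higher in each labelled cKO library than in each WT library. Ikbkb reached an FPKM of 1 in the labelled cKO libraries only and was tested through them, so this separation follows from the filter. Its log2 fold change was 4.21 ± 2.71 (SE, edgeR, adjusted p = 0.734). Tbk1, an IKK-related kinase, had 104.8, 41.9 and 44.5 FPKM in labelled cKO 1, 2 and 3, against 0.566 and 25.7 FPKM in WT 1 and 2 and a listed 0 in WT 3. Tbk1 also did not overlap between genotypes, with a log2 fold change of 3.38 (edgeR, adjusted p = 0.734). Of all tested genes, 6.37% lay higher in every labelled cKO library than in every WT library. Chuk, the kinase of the noncanonical arm, had 0.165, 25.7 and 0.0341 FPKM in labelled cKO 1, 2 and 3, against 0.507, 13.5 and 1.31 FPKM in WT 1, 2 and 3, and its genotypes overlapped (log2 fold change 1.31; edgeR, adjusted p = 0.837).

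Rela, the activating subunit of the canonical dimer, was the 1 gene tested of 4 further subunit and inhibitor genes in the table. It had an FPKM of 8.48, 1.02 and 0.117 in labelled cKO 1, 2 and 3, against 110.9, 2.96 and 1.05 in WT 1, 2 and 3. WT 1 stood far above the rest on 7326 counts, and the genotypes overlapped. Rela had a log2 fold change of -3.50 ± 2.66 (SE; edgeR, adjusted p = 0.734).

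Of 13 negative regulators, 4 were tested and 3 had a positive fold change. Commd1, which promotes the degradation of NF-kB subunits, had an FPKM of 132.4, 33.1 and 63.3 in labelled cKO 1, 2 and 3, against 0.226, 1.13 and 0.415 in WT 1, 2 and 3. Its genotypes did not overlap, where 6.37% of all tested genes lay higher in every labelled cKO library. Its log2 fold change of 7.44 was the 1 with an unadjusted p under 0.05 (edgeR, unadjusted p = 0.0131, adjusted p = 0.692). Tax1bp1, an adaptor of the Tnfaip3 enzyme, had 169.9, 41.5 and 20.6 FPKM in labelled cKO 1, 2 and 3, against 30.2, 26.2 and 2.02 FPKM in WT 1, 2 and 3. Otulin, which removes linear ubiquitin chains, had 3.52, 0.0655 and 0.0845 FPKM in labelled cKO 1, 2 and 3, against 0.675, 12.6 and 1.64 FPKM in WT 1, 2 and 3. The genotypes overlapped for Tax1bp1 and Otulin, with log2 fold changes of 2.26 and -1.50 (edgeR, adjusted p of 0.748 and 0.765).

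Inducible targets gave no pattern common to all of them. Of 11 cytokine and chemokine genes in the table only Ccl4, a chemokine of activated leukocytes, was tested. Ccl4 had an FPKM of 1.62, 98.0 and 350.6 in labelled cKO 1, 2 and 3, against 1.89, 168.3 and 12.0 in WT 1, 2 and 3, highest in labelled cKO 3 and WT 2, the libraries with the highest Tnfaip3 and Birc3 (log2 fold change 1.73; edgeR, adjusted p = 0.813). The following untested genes were picked out after their values were seen. Cxcl2 had an FPKM of 22.0 in labelled cKO 3, on 3534 counts, and stayed below 1 in the other libraries. Ccl3 and Il1b were highest in WT 3, at 5.73 and 3.67 on 25 and 39 counts, and Il6 and Ccl2 stayed below 1 in all libraries. Of 13 other targets, 6 were tested and 5 had a positive fold change. Among those not tested, again picked out by their values, Ptgs2 was highest in labelled cKO 3 (13.5) and WT 2 (3.35), as Ccl4 was. Icam1 (7.76) and Vcam1 (6.81) were highest in WT 2 and below 1 in each labelled cKO library. Irf1, an interferon-regulatory transcription factor, had 0.199, 84.5 and 2.95 FPKM in labelled cKO 1, 2 and 3, against 0.582, 0.0720 and 2.28 FPKM in WT 1, 2 and 3. Tnfaip2 had 95.6, 9.03 and 8.03 FPKM in labelled cKO 1, 2 and 3, against 0.460, 15.2 and 1.29 FPKM in WT 1, 2 and 3. Bcl2l1, which encodes the survival protein BCL-xL, had 0.339, 0.0869 and 0.142 FPKM in labelled cKO 1, 2 and 3, against 1.13, 4.35 and 2.26 FPKM in WT 1, 2 and 3. Each WT library lay above each labelled cKO library, but Bcl2l1 passed the filter through WT alone, so this separation follows from the filter. Of all tested genes, 11.6% did not overlap between genotypes in either direction. The log2 fold changes of Irf1, Tnfaip2 and Bcl2l1 were 5.36, 3.27 and -3.30 (edgeR, adjusted p of 0.692, 0.736 and 0.692).

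**Figure D5:**
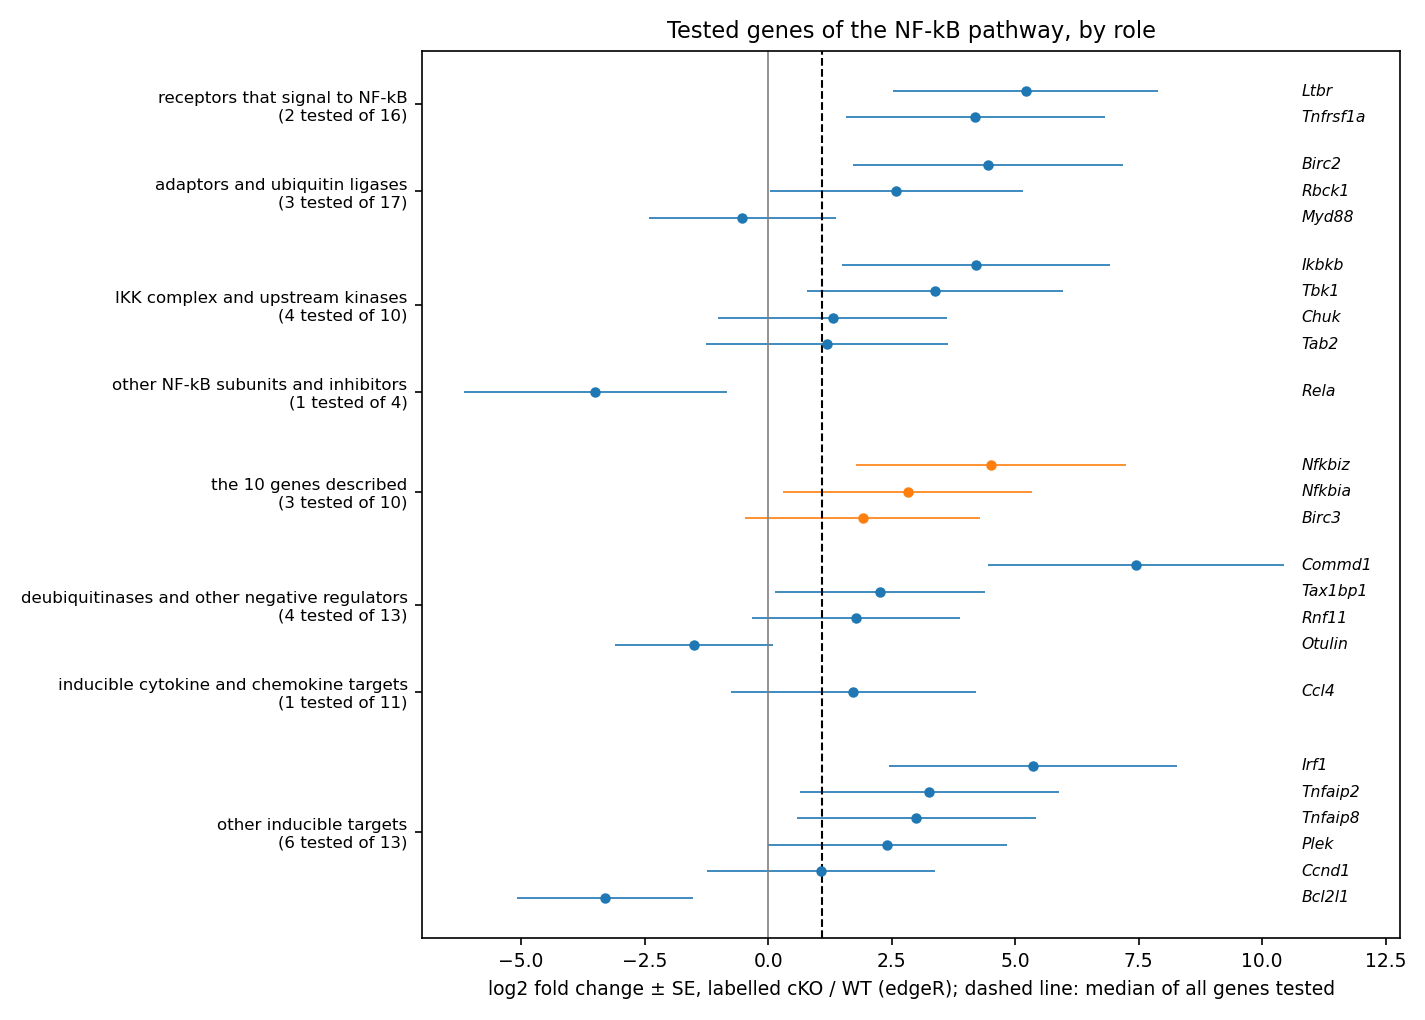
Log2 fold change, labelled cKO over WT (edgeR; bars are 1 standard error), of every tested gene of the pathway, grouped by role from receptors to target genes. Orange points are Nfkbiz, Nfkbia and Birc3, and the dashed line is the median of all tested genes, 1.10. Most points lie right of 0 and close to or right of the dashed line, and Rela, Bcl2l1, Otulin and Myd88 lie left of 0.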

How the data were processed

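RNA was measured in 3 libraries labelled Piezo1 cKO and 3 WT libraries, grouped by the genotype label. Per the file headers, the deposited table gives a raw count and an FPKM for each gene and library, the FPKM being scaled by the authors to transcript length and depth. The submitters' processing notes list build GRCm39 and, without roles, edgeR, DESeq2, StringTie 2.1.6, HISAT2 2.2.1 and cutadapt 1.9. The counter, strand setting and annotation release are not given in the sources used here. Deposited coordinates were compared with GENCODE M21 (GRCm38): 17584 of 19953 matched genes (88.1%) had the same start and end, so they are printed as deposited and read as GRCm38. Among counts of 1 to 40, 40.2% to 48.8% per library were multiples of 4, and no molecular identifiers were used, so a count is not a number of independent molecules and floors cover counting error only.

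Genes with an FPKM of at least 1 in at least 3 of 6 libraries (4173) were tested with edgeR 4.0.16 (quasi-likelihood, TMM scaling, genotype only, R 4.3.3), and a standard error is the log2 fold change divided by the root of its F statistic. Alternatives were DESeq2 1.42.0, limma 3.58.1 on log2(FPKM + 1), other scalings and filters, a block, a covariate and left-out libraries. The genes and lists were chosen with earlier results of these data known. Named genes were the 10, up to 3 tested genes of each pathway list with the smallest p, and the 5 most like Nfkbia outside the 10 and the predicted genes. The tests were checked on simulated counts, and figures used matplotlib 3.10.9.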

Additional observations from a re-analysis of the deposited data

How the results depend on the processing

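No setting called any of the 10 genes that it tested. All 10 were tested only in the fit with no filter. The main fit, DESeq2 and limma tested 3 of them (Nfkbia, Nfkbiz and Birc3), and DESeq2 gave no p for Birc3. The count of genes called among all tested, 0 with edgeR, was 163 with no filter, 2 at a mean FPKM of at least 5, 298 with DESeq2 and 1 without WT 1 and WT 3. The median log2 fold change of all tested genes was 1.10 with TMM, 0.52 with median-of-ratios and 0.64 with total count scaling only. Nfkbia and Nfkbiz kept a positive fold change under every alternative run. Birc3 turned to -0.26 with the replicate block, and ranged from -1.51 to 4.62 with 1 library left out. In the fit with no filter, leaving out 1 library gave ranges of -0.97 to 2.85 for Nfkb2, -0.92 to 3.22 for Rel, -4.86 to 6.58 for Tnfaip3 and -1.67 to 0.42 for Cd83, while Nfkb1, Relb and Traf1 kept their sign. The cause was not tested, beyond the fact that the fits without labelled cKO 3 lack the highest library of Birc3, Nfkb2, Rel and Tnfaip3. Replicate numbers gave no clear sign of pairing: deviations of same-numbered libraries correlated at 0.13, 0.15 and -0.16, and not every library correlated best with its own number. With 3 libraries per genotype of unlike depth, this check cannot exclude a shared batch. With the replicate block, 0 genes were called and 84 had an unadjusted p under 0.05, against 287 without it (edgeR). Traf1, Cd83, Rel and Relb stood on under 40 counts in most libraries, the deepest included, which limits the precision of their fold changes.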
